A study of Mus musculus with 8 samples.

Results

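The mitochondrial genome encodes a small set of RNAs, and this account describes their read counts in natural killer (NK) cells of 4 groups. Members were taken by their symbols: every row whose gene symbol starts with mt- was included, which gave 37 of the 48321 symbols listed. The 37 comprised 13 mRNAs, 2 rRNAs and 22 tRNAs, and these 3 classes were kept apart. A total of 34 members had at least 1 read in some library, and the tRNAs mt-Tg, mt-Th and mt-Tk had 0 reads in all 8 libraries. Of the members, 15 had enough reads for testing, among 12595 genes in all, namely 8 mRNAs, 2 rRNAs and 5 tRNAs.

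The libraries came from C57/Bl6 mice and held NK cells freshly sorted as CD45+ TCRb- NK1.1+ from lung or spleen, organs in which NK cells patrol as innate killers of infected and tumour cells. In each organ, Wt cells were compared with cells labelled KO, which carry a homozygous deletion of the proximal enhancer of the chemokine gene Ccl5 (Ccl5 ΔPE/ΔPE), and no treatment or time course was part of the design. The deletion is in the germ line, so every cell of the animal carries it. There were 2 libraries in each of the 4 groups (lung Wt, lung KO, spleen Wt and spleen KO). The study used mice of both sexes and gives their age only as a range for all its experiments, and the labels do not say which mouse or how many mice gave each library, so p-values measure only the spread between these libraries, which may be technical. Counted reads per library ranged from 3132963 to 26482366, with spleen KO 2 the deepest. Ccl5 itself checked the labels: it lay between 15633 and 19480 CPM (reads relative to the TMM-scaled library total) in the 4 Wt libraries and between 2428 and 3189 CPM in the 4 KO libraries.

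Mitochondrial DNA is transcribed from both strands as long precursors that run almost around the circle. The tRNAs lie between most of the mRNAs and rRNAs and are cut out by RNase P and RNase Z, which frees the other RNAs. The mRNAs encode core subunits of respiratory complex I (the mt-Nd genes), complex III (mt-Cytb), complex IV (the mt-Co genes) and ATP synthase (mt-Atp6 and mt-Atp8), and the 2 rRNAs build the mitochondrial ribosome that translates them. Every other subunit of these complexes, and every factor that transcribes, cuts, modifies or degrades these RNAs, is encoded in the nucleus.

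The mRNAs differed widely in how many of their bases also occur in nuclear DNA. The count files set apart reads that align to more than 1 place in the genome, which were 29.7% to 33.2% of the aligned records, and the mouse nuclear genome holds near-perfect copies of part of the mitochondrial DNA. Each member was cut into all its overlapping 50-base windows, the read length of these libraries, and each window was looked up in all nuclear transcripts of the GENCODE M21 annotation (GRCm38, the build the reads were aligned to). A pseudogene block on the minus strand of chromosome 1 holds Gm29216, Gm28661, Gm10925, Gm28437, Gm28438, Gm10222 and Gm28439, which copy the end of mt-Co1, mt-Co2, mt-Atp6, mt-Co3, mt-Nd3, mt-Nd4l and the first part of mt-Nd4, in this order. The copy of mt-Co2 (Gm28661, chr1:24614885-24615565) matched it over 681 bases with 0 mismatches, and the copy of mt-Atp6 (Gm10925, chr1:24613974-24614651) over 678 bases with 0 mismatches. Gm28438, the copy of mt-Nd3, differed from it at 1 of 345 bases. A second block on chromosome 2, of which Gm13340 and Gm13341 are part, copies mt-Co1 and mt-Co2.

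The sequences below show where exact 50-base matches to the copies begin and end, because read counts differed between copied and other mRNAs. Aligned without gaps, Gm29216 covers mt-Co1 from base 1054 with 6 mismatches, and its first exact 50-base match starts at base 1067. Capitals mark bases that lie in a 50-base window found in a nuclear transcript, in the first line only those shared with Gm29216 and in the second only those shared with Gm28439. They are read 5′ to 3′ from the plus strand of the mitochondrial chromosome in GENCODE M21 (GRCm38): mt-Co1 at chrM:6354-6453, mt-Nd4 at chrM:10983-11082, mt-Co2 at chrM:7013-7112, mt-Nd3 at chrM:9459-9558 and mt-Cytb at chrM:14145-14244. All 5 stretches lie within the annotated exon of their gene, since mitochondrial genes have no introns.
mt-Co1: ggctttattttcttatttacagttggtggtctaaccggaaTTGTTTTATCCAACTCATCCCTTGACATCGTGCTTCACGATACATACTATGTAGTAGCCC
mt-Nd4: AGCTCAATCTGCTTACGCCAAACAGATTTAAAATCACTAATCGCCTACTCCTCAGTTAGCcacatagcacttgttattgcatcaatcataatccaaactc
mt-Co2: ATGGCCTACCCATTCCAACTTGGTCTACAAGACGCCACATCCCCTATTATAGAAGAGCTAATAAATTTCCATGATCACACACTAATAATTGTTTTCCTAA
mt-Nd3: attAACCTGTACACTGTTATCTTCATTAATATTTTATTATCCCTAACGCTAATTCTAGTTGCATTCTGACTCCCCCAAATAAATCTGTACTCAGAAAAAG
mt-Cytb: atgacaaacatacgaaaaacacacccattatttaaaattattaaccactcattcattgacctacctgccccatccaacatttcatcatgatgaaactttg

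Read counts were lowest in the copied stretch and in mt-Atp8 within it. In mt-Co2, mt-Atp6, mt-Co3, mt-Nd3 and mt-Nd4l between 98.0% and 100% of the windows were shared, and these 5 had 33, 100, 28, 5 and 3 reads in total over the 8 libraries. No window of mt-Atp8 was shared, but it lies between the copied mt-Co2 and mt-Atp6, in a stretch for which the transcripts hold no copy, and it had 21 reads. These 6 genes made up 26.3% of the summed length of the mt mRNAs and 0.0322% of their reads. In mt-Co1, 51.1% of the windows were shared with Gm11512, Gm13340 or Gm29216, those with Gm29216 only from base 1067 onward. In mt-Nd4, 62.2% of the windows were shared, with Gm28439 up to base 876. mt-Nd2 (8.19%) and mt-Nd5 (7.61%) shared few windows and mt-Nd1, mt-Nd6, mt-Cytb and mt-Rnr1 none, and in mt-Rnr2 1.04% of the windows were shared. The remaining 7 mRNAs, mt-Nd1, mt-Nd2, mt-Co1, mt-Nd4, mt-Nd5, mt-Nd6 and mt-Cytb, carried 589221 of the mt mRNA reads. Whether reads of the 6 genes lie among the reads set apart was not tested, so their low counts are no measure of their RNA. The 16 nuclear genes examined as copies had 1771 reads in all libraries together, and 585 of these were on Gm13341.

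**Figure D1:**
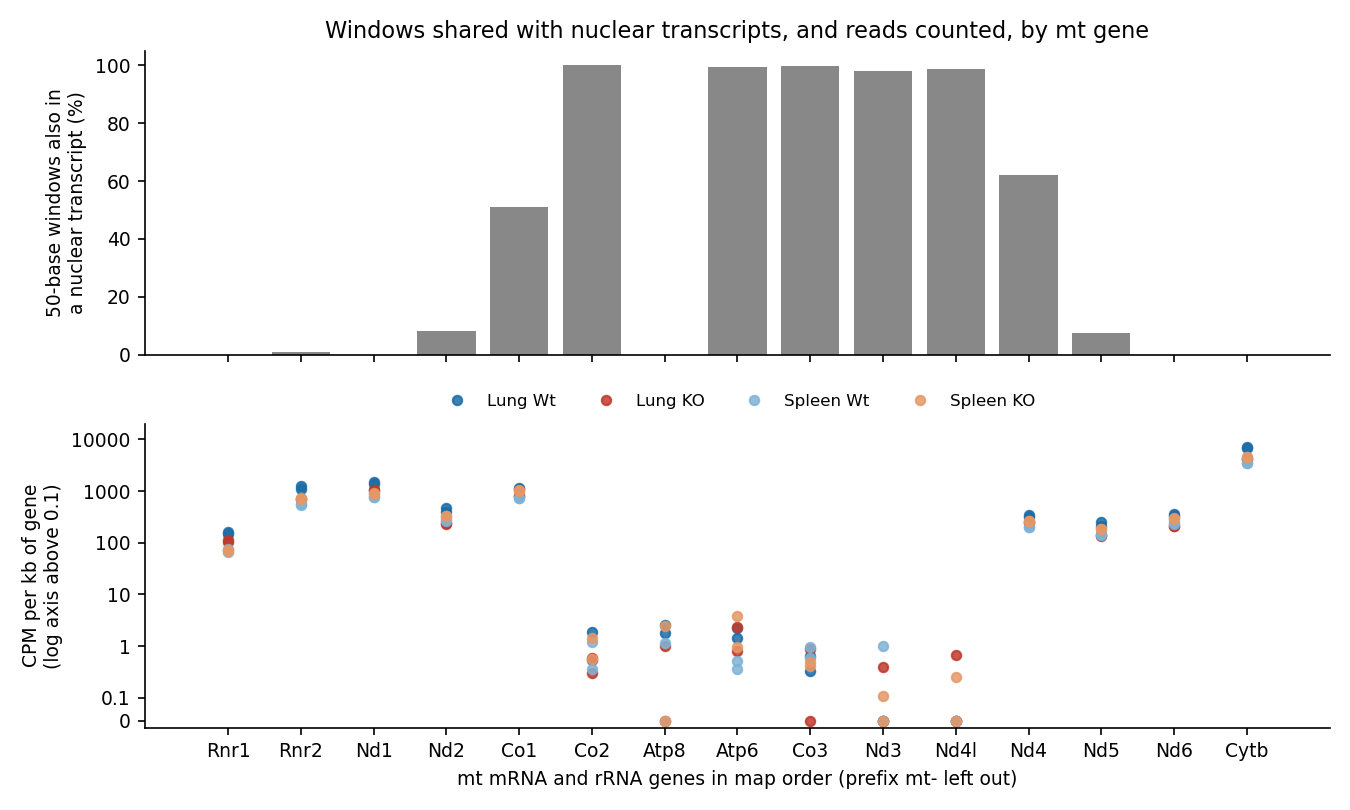
Upper panel: percent of the 50-base windows of each mitochondrial mRNA and rRNA that also occur in a nuclear transcript. Lower panel: CPM per kb of gene in each of the 8 libraries (points, coloured by group, log axis above 0.1). The 5 genes with 98.0% to 100% shared windows, and mt-Atp8 between them, sit below 5 CPM per kb, and all others above 60.

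Per kb of gene, the countable members spanned a wide range within the same libraries. In lung Wt, mt-Cytb stood at a mean of 6951 CPM per kb, mt-Nd1 at 1446, mt-Rnr2 at 1189, mt-Co1 at 1129, mt-Nd2 at 424, mt-Nd6 at 345, mt-Nd4 at 328, mt-Nd5 at 230 and mt-Rnr1 at 154. Counted per kb of window starts that are not shared, mt-Co1 stood at 2385 CPM and mt-Nd4 at 900.2, above mt-Nd1 (1524) and mt-Nd2 (485), respectively. In every library more uniquely aligned reads were counted on no gene than on genes, for example 10428524 against 8444054 in lung Wt 1. The part of the libraries' strand setting in this was not tested, and that setting is not given in the sources used here. Reads of mt-Nd6, the only mRNA read from the other strand, can therefore not be told apart from antisense reads of the same stretch, and likewise for tRNAs that face or overlap another gene.

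As a class, mt mRNAs took the largest share of reads in lung Wt, and the KO went with a smaller share in lung and a larger share in spleen. The 13 mRNAs held 1.25% and 1.17% of the counted reads in the 2 lung Wt libraries, against 0.818% and 0.804% for lung KO. In spleen they held 0.693% and 0.698% for Wt libraries and 0.882% and 0.861% for KO ones. No group overlapped another, and the order was lung Wt, spleen KO, lung KO, spleen Wt. The lung KO mean was 0.671 times the lung Wt mean, and the spleen KO mean 1.25 times the spleen Wt mean. The widest Wilson 95% interval of such a share spanned 0.0211 percentage points, which covers counting error only. An exact two-sided permutation test of 2 against 2 libraries gave p = 0.333 for each of these contrasts, the smallest p this design allows. The order of the class was not that of every mRNA. By mean CPM it held for mt-Cytb, mt-Co1 and mt-Nd4. Lung KO was instead the lowest group for mt-Nd2, mt-Nd5 and mt-Nd6 and stood above spleen KO for mt-Nd1. In bulk samples, fewer cells of a type and less RNA per cell cannot be told apart.

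The rRNA share had the same highest and lowest groups. It was 0.205% and 0.185% in lung Wt and fell to 0.126% and 0.127% in KO. In spleen it was 0.0966% in both Wt libraries, with 0.119% and 0.117% for KO. The tRNA share was far smaller and ordered differently. It was 0.00206% and 0.00228% in lung Wt and 0.00125% and 0.0010005% in lung KO. In the spleen libraries it was 0.00291% and 0.00245% for Wt and 0.00345% and 0.00361% for KO. Thus spleen KO was highest for tRNAs, while lung Wt was highest for mRNAs and rRNAs.

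**Figure D2:**
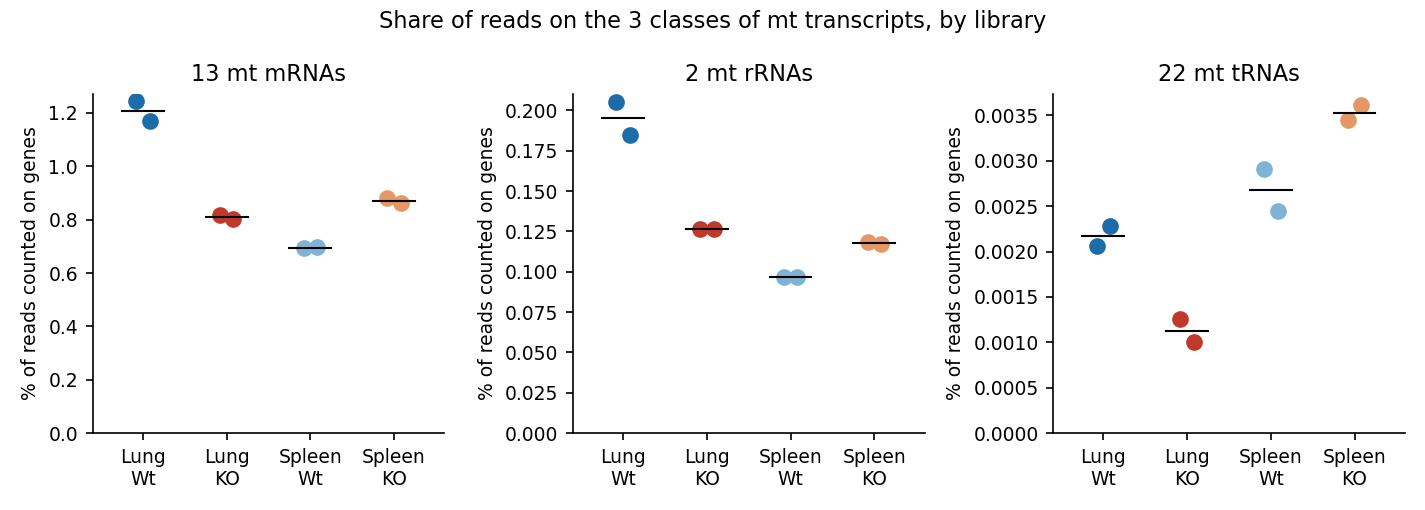
Percent of the counted reads on the 13 mt mRNAs, 2 mt rRNAs and 22 mt tRNAs in each library (points) with the group mean (line), for lung and spleen, Wt and KO. The 2 lung Wt libraries are the highest for mRNAs (1.25% and 1.17%) and rRNAs, and the 2 lung KO libraries the lowest for tRNAs.

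In lung, all 7 countable mRNAs were lower in KO than in Wt. mt-Cytb, the mitochondrial subunit of complex III, stood at 8217 and 7686 CPM in lung Wt and at 4781 and 4674 CPM in lung KO. This was a log2 fold change of -0.75 (SE 0.035, adjusted p = 7.23e-20 by the quasi-likelihood test of edgeR, with Benjamini-Hochberg values taken over the 12595 genes, as in all tests below). The groups did not overlap for this or any of the other 6 mRNAs, but the share of all genes that separate likewise was not counted. Among the complex I subunits, mt-Nd2 fell most, from 480 and 399 CPM to 242 and 251 CPM (log2 -0.85, SE 0.055, adjusted p = 1.06e-15). mt-Nd5 was at 454 and 387 CPM in Wt and at 254 and 242 CPM in KO (log2 -0.78, SE 0.053, adjusted p = 3.38e-15). mt-Nd6 was at 188 and 170 CPM in Wt and at 109 and 107 CPM in KO (log2 -0.74, SE 0.060, adjusted p = 4.36e-13). The decrease was smaller for mt-Nd1 (1437 and 1331 CPM against 988 and 992 CPM, log2 -0.49, SE 0.039, adjusted p = 3.25e-13) and for mt-Nd4 (475 and 428 CPM against 346 and 331 CPM, log2 -0.43, SE 0.046, adjusted p = 4.61e-10). mt-Co1, the catalytic core of complex IV, was at 1794 and 1693 CPM in Wt and at 1266 and 1262 CPM in KO (log2 -0.47, SE 0.037, adjusted p = 2.00e-13).

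Thus 7 of 8 mRNAs tested were called lower in lung KO, where 26.4% of the 12595 genes were called lower and 55.6% in either direction. mt-Atp6 passed the filter with 1 to 68 reads per library and was not called in lung (log2 -0.26, SE 0.61, adjusted p = 0.744). The median log2 fold change was -0.74 over the 7 mRNAs and 0.02 over all genes tested. The size was smaller in a fit that takes base composition into account. The transcripts of the 7 mRNAs and 2 rRNAs are 34.1% to 39.9% GC, while the median of tested nuclear genes is 48.9% and 6.69% of them lie at or below 39.9%. With an offset that removes each library's trend with GC content, the 7 values ran from -0.57 to -0.04 with a median of -0.32, and mt-Nd4 was no longer called (log2 -0.04, adjusted p = 0.458). The 2 libraries of a group also lay very close together (common biological coefficient of variation 2.50%), and with a coefficient of 0.2 assumed instead, mt-Nd2 alone was called (adjusted p = 0.0376), beside 12.4% of all genes.

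The 2 rRNAs were lower in lung KO as well. mt-Rnr2, the RNA of the large ribosomal subunit, was at 1993 and 1771 CPM in Wt and at 1134 and 1132 CPM in KO (log2 -0.74, SE 0.040, adjusted p = 7.79e-18). mt-Rnr1, that of the small subunit, was at 156 and 139 CPM in Wt and at 100.3 and 107 CPM in KO (log2 -0.52, SE 0.064, adjusted p = 1.11e-08). The GC offset made these -0.33 (adjusted p = 1.07e-09) and -0.14 (adjusted p = 0.0505), so that mt-Rnr1 was no longer called.

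Other cell types also differed between the lung groups. The summed level of 8 markers of lung epithelium and endothelium was 264 to 272 CPM in lung Wt and 379 to 420 CPM in lung KO. The surfactant gene Sftpc led this sum (152 and 155 CPM against 251 and 281 CPM), while Epcam was at 0 in lung Wt. Scgb1a1 went the other way, at 87.1 and 83.3 CPM in lung Wt against 60.3 and 63.8 CPM in lung KO. So did Cdh5, at 9.43 and 8.53 CPM against 4.70 and 7.74 CPM. The summed level of 8 NK markers was 49286 to 50655 CPM in lung Wt and 38873 to 39314 CPM in lung KO, with none at 0. In spleen the 8 NK markers summed to 35389 to 35940 CPM in Wt and 45990 to 48276 CPM in KO, in the order that the mt mRNAs show within each organ. Gzma and Nkg7 carried most of this sum, while 2 of the 8 stood the opposite way in both organs. Tbx21, a transcription factor of NK cells, was at 216 and 221 CPM in lung Wt against 477 and 479 CPM for KO, and in spleen at 341 and 330.5 CPM for Wt against 149.5 and 147 CPM for KO. Prf1, which encodes perforin, was at 1460.2 and 1553 CPM in lung Wt against 2472 and 2549 CPM for KO, and in spleen at 1300.4 and 1317 CPM for Wt against 937 and 936 CPM for KO. Epithelial and endothelial markers did not exceed 0.650 CPM in any spleen library, with 7 of 8 at 0 in both spleen groups. The summed 6 T cell markers lay between 48.4 and 177 CPM and the 5 B cell markers between 248 and 630 CPM over all libraries, both higher in spleen. The 6 myeloid markers summed to between 19.9 and 41.4 CPM, and 7 erythroid and platelet genes to 54.3 to 59.9 CPM in lung and 1.496 to 2.93 CPM in spleen. Within that lung sum, the globin gene Hbb-bs was at 13.2 and 16.5 CPM in Wt against 28.6 and 31.6 CPM in KO. The platelet gene Ppbp went the other way, at 21.1 and 20.2 CPM in Wt against 4.70 and 6.11 CPM in KO, as did Pf4, at 8.56 and 8.27 CPM against 1.23 and 0.543 CPM. The part of these differences in the mitochondrial values was not tested.

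In spleen, the 7 mRNAs moved the other way and were all higher in KO, by less than in lung for all but mt-Co1. mt-Co1 was at 1134 and 1127 CPM in spleen Wt and at 1644 and 1567 CPM in spleen KO (log2 0.50, SE 0.037, adjusted p = 4.30e-14). mt-Cytb was at 3906 and 3918 CPM in Wt and at 5267 and 5111 CPM in KO (log2 0.41, SE 0.035, adjusted p = 2.68e-12). mt-Nd4 was at 280 and 275 CPM in Wt and at 356 and 368 CPM in KO (log2 0.40, SE 0.046, adjusted p = 3.92e-09). For all 7 the groups did not overlap, again with no share of all genes counted beside it. The other complex I mRNAs differed by smaller amounts. mt-Nd5 was at 259 and 273 CPM against 331 and 338 CPM (log2 0.33, adjusted p = 1.11e-06), and mt-Nd6 at 121 and 130 CPM against 157 and 152 CPM (log2 0.27, adjusted p = 7.43e-05). mt-Nd1 was at 727 CPM in both Wt libraries against 896 and 838 CPM (log2 0.24, adjusted p = 3.00e-06), and mt-Nd2 at 280 and 300 CPM against 346 and 340 CPM (log2 0.23, adjusted p = 0.000426).

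All 8 mRNAs tested were thus called higher in spleen KO, beside 28.2% of all genes tested. mt-Atp6 is counted among them with 1 and 3 reads in the Wt libraries against 2 and 68 in the KO ones, so that its value rests on spleen KO 2 and no fold change is drawn from it. The median over the 7 others was 0.33, and 0.00 over all genes. Under the GC offset the 7 values ran from -0.03 to 0.34. Only mt-Co1 (0.34), mt-Cytb (0.22) and mt-Nd4 (0.14) of them were then called, while mt-Nd2 (-0.03) and mt-Nd6 (-0.02) changed sign. With an assumed coefficient of variation of 0.2 none of the 7 was called, beside 9.08% of all genes. The 2 rRNAs parted in spleen. mt-Rnr2 was at 871 and 863 CPM in Wt and at 1145 and 1120 CPM in KO (log2 0.38, SE 0.041, adjusted p = 5.44e-10). mt-Rnr1 was at 64.1 and 72.1 CPM in Wt and at 67.1 and 69.2 CPM in KO, overlapping (log2 -0.01, SE 0.071, adjusted p = 0.937). Under that offset mt-Rnr2 stood at 0.12 (adjusted p = 0.0103) and mt-Rnr1 at -0.27 (adjusted p = 0.000988), which made mt-Rnr1 lower in KO.

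**Figure D3:**
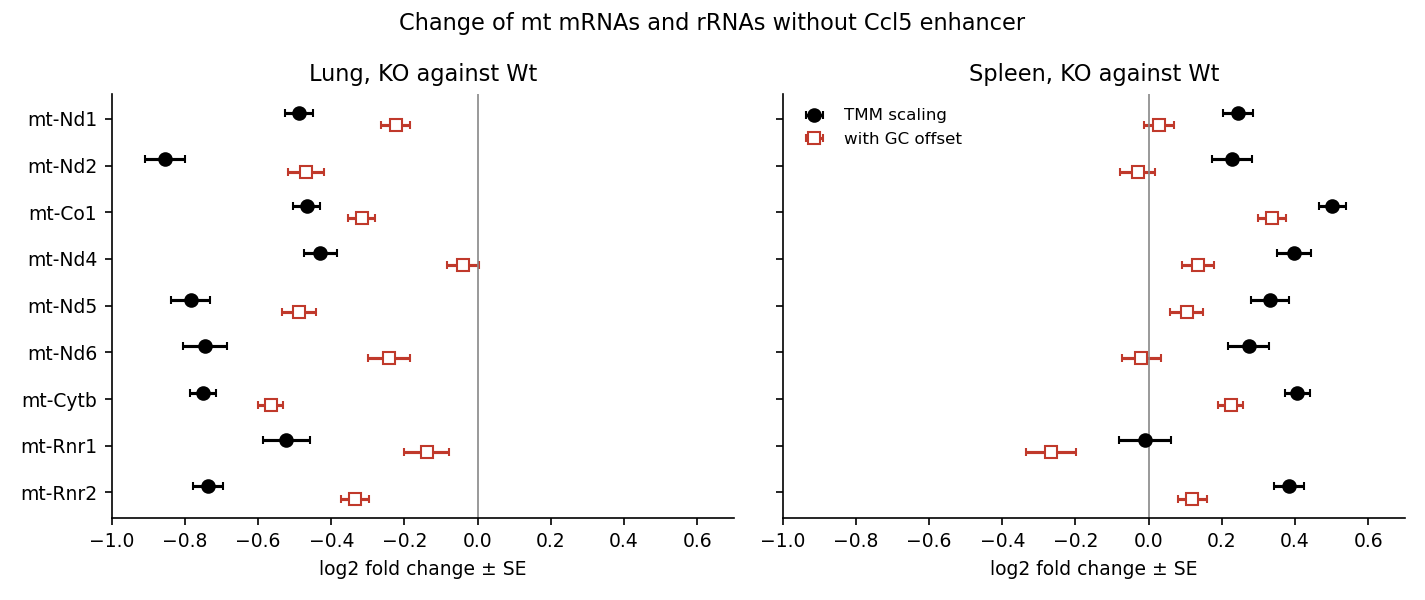
Log2 fold change of KO against Wt with its SE for the 7 countable mt mRNAs and the 2 rRNAs, in lung (left) and spleen (right), from the TMM-scaled fit (filled circles) and with an offset for GC content (open squares). In lung all 9 circles lie left of 0 (-0.85 to -0.43), in spleen all but mt-Rnr1 right of it, and the squares lie nearer to 0 except for mt-Rnr1 in spleen.

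The effect of the KO differed between the organs for all 7 mRNAs and both rRNAs by the interaction test. The difference, lung effect minus spleen effect, was -1.16 on the log2 scale for mt-Cytb (SE 0.049, adjusted p = 2.02e-21), and -0.73 for mt-Nd1, the smallest among the 7 (SE 0.056, adjusted p = 5.03e-14). In this test 29.0% of all genes tested were called lower and 61.6% in either direction. With the GC offset the 7 differences ran from -0.79 to -0.18 and all stayed called, with adjusted p between 1.34e-17 and 0.0145. mt-Rnr2 differed by -1.12 (SE 0.057), or -0.45 with the GC offset (adjusted p = 2.65e-09). mt-Rnr1 differed by -0.51 (SE 0.096) and turned to 0.13 with that offset (adjusted p = 0.230). With the assumed coefficient of variation of 0.2, mt-Cytb (adjusted p = 0.0342), mt-Nd5 (adjusted p = 0.0494) and the sparse mt-Atp6 were the mRNAs still called. That setting called 16% of all genes in either direction.

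Between organs, the order depended on the genotype. In Wt, all 7 mRNAs were higher in lung than in spleen, and 27.7% of all genes were called higher, 57.0% in either direction. The difference was largest for mt-Cytb (log2 1.02, SE 0.035, adjusted p = 1.27e-24) and mt-Nd1 (log2 0.93, SE 0.040), and smallest for mt-Nd6 (log2 0.52, SE 0.058, adjusted p = 1.50e-09). mt-Rnr1 (log2 1.11, SE 0.069) and mt-Rnr2 (log2 1.12, SE 0.041) were also higher in Wt lung, and stood at 0.63 and 0.61 with the GC offset. With the GC offset the mRNA values ran from -0.10 to 0.76, and mt-Nd6 was no longer called (adjusted p = 0.118). In KO cells, 6 of the 7 were lower in lung, with mt-Nd6 lowest (log2 -0.50, SE 0.058, adjusted p = 1.14e-09), beside 31.7% of all genes called lower and 65.6% in either direction. mt-Nd1 was the exception, higher in lung KO than in spleen KO (log2 0.20, SE 0.039, adjusted p = 2.94e-05), where 33.9% of all genes were called higher. mt-Cytb (log2 -0.13) and mt-Nd4 (log2 -0.11) differed little, and with the GC offset they stood at -0.03 and 0.05 and were not called. Without lung KO 2 (log2 -0.07) or spleen KO 2 (log2 -0.07) mt-Nd4 was not called either. mt-Atp6 was called higher in lung in Wt and lower in KO, the first not without any library of the 2 groups and the second not without lung KO 2. Of the rRNAs, mt-Rnr1 was higher in lung KO than in spleen KO (log2 0.60, SE 0.066, adjusted p = 4.98e-10), and mt-Rnr2 overlapped (log2 0.00, SE 0.040, adjusted p = 0.955), though with the GC offset it was called higher in lung KO (log2 0.16, adjusted p = 0.000578).

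The make-up of the mt mRNA pool also differed between the groups. mt-Cytb took between 58.0% and 63.5% of the mt mRNA reads, mt-Co1 between 13.8% and 18.3%, and mt-Nd1 between 9.61% and 12.6%. mt-Co1's share separated all 4 groups: a mean of 13.9% ± 0.17 in lung Wt (SD, n = 2), of 15.9% ± 0.15 in lung KO, of 16.8% ± 0.15 in spleen Wt and of 18.1% ± 0.21 in spleen KO. The share of mt-Nd1 was highest in lung KO, at 12.4% and 12.6%, and lowest in spleen KO, at 9.96% and 9.61%. Both Wt groups lay between, with means of 11.01% in lung and 10.8% in spleen.

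To test which mRNAs departed from the class, the same test was run with each library's total of mt mRNA reads as its scale. Of that total mt-Cytb made up 58.0% to 63.5%, so it can depart little from the scale, and its own changes shift the others. This scale moves most nuclear genes too, so that 79.2% of all genes passed in lung KO against Wt and 63.5% in spleen. Relative to the pool, mt-Nd4 (log2 0.25, SE 0.060), mt-Co1 (log2 0.20, SE 0.053) and mt-Nd1 (log2 0.18, SE 0.054) were higher in lung KO and mt-Nd2 was lower (log2 -0.17, SE 0.062, adjusted p = 0.00856). That of mt-Nd2 did not pass without lung Wt 1 (adjusted p = 0.247) or lung KO 1 (adjusted p = 0.124). mt-Cytb, mt-Nd5 and mt-Nd6 did not pass, though mt-Nd5 did without lung Wt 2 (log2 -0.16, adjusted p = 0.0112). In spleen KO, mt-Nd1 (log2 -0.15, SE 0.055, adjusted p = 0.0162) and mt-Nd2 (log2 -0.16, SE 0.061, adjusted p = 0.0195) were lower relative to the pool. Neither passed without spleen KO 2 (adjusted p = 0.177 and 0.0841) or spleen Wt 2 (adjusted p = 0.0828 and 0.308), nor did mt-Nd1 without spleen Wt 1 (adjusted p = 0.0895) or mt-Nd2 without spleen KO 1 (adjusted p = 0.0655). The KO effect on the share differed between organs for mt-Nd1 (log2 0.33, SE 0.077, adjusted p = 6.14e-05) and mt-Nd4 (log2 0.25, SE 0.085, adjusted p = 0.00606), where 79.6% of all genes passed. Between organs in Wt, where 86.4% of all genes passed, mt-Nd6 was the lowest relative to the pool (log2 -0.40, SE 0.071, adjusted p = 2.01e-07). In KO, where 63.3% passed, mt-Nd1 was higher in lung (log2 0.36, SE 0.055, adjusted p = 5.38e-09).

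**Figure D4:**
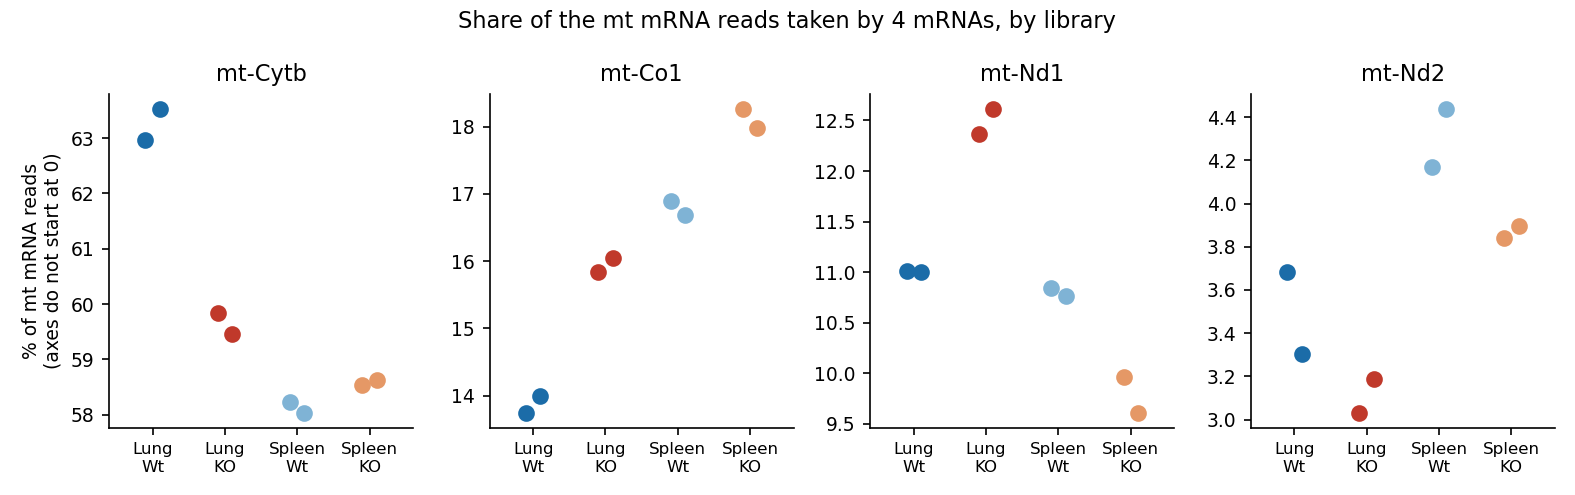
Percent of each library's mt mRNA reads that fell on mt-Cytb, mt-Co1, mt-Nd1 and mt-Nd2 (points, 2 libraries per group, axes not from 0). The share of mt-Co1 rises from 13.8% in a lung Wt library to 18.3% in a spleen KO library without overlap of the groups.

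The ratio of the 2 rRNAs, which are made from the same precursor, also varied. Reads of mt-Rnr2 per read of mt-Rnr1 numbered 12.8 and 12.7 in lung Wt against 11.3 and 10.6 in KO. In spleen they numbered 13.6 and 12.0 for Wt against 17.1 and 16.2 for KO. Spleen KO was the highest group and lung KO the lowest, and neither overlapped another group, while the 2 Wt groups overlapped. The labels give total RNA and the study's methods purify mRNA, and the part of that step in the rRNA values was not tested.

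Of the tRNAs, 5 passed the filter, and they are shown whole because each is little longer than a read of 50 bases. Capitals mark the anticodon, found as the expected triplet between a pyrimidine pair and a purine. The sequences are written 5′ to 3′ on the transcribed strand from GENCODE M21 (GRCm38): mt-Tq (glutamine) at chrM:3772-3842 on the minus strand, mt-Tm (methionine) at chrM:3845-3913 on the plus strand, and mt-Tp (proline) at chrM:15356-15422, mt-Ta (alanine) at chrM:5018-5086 and mt-Tc (cysteine) at chrM:5192-5257, all 3 on the minus strand.
mt-Tq: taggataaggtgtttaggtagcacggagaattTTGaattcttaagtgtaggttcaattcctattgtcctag
mt-Tm: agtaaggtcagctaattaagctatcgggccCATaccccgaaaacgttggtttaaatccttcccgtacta
mt-Tp: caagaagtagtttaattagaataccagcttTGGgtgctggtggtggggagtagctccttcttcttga
mt-Ta: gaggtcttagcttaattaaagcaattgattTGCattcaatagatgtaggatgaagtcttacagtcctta
mt-Tc: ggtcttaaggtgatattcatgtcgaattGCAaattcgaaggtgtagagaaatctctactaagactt

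The tRNA counts were low throughout. The 8 tRNAs read from the light-strand transcript, as the annotation's minus strand marks them, had 1048 reads over all libraries and the 14 others 729, with mt-Tm (402 reads) and mt-Tq (358 reads) the highest. The 17 untested tRNAs had at most 83 reads (mt-Ti) and a median of 7. Reads of mature tRNAs and of longer precursors cannot be told apart. In lung, mt-Tq was at 5.09 and 4.14 CPM in Wt and at 1.23 and 1.09 CPM in KO (log2 -2.05, SE 0.40, adjusted p = 4.72e-05). mt-Tm was at 5.09 and 5.95 CPM in lung Wt against 3.06 and 2.58 CPM in lung KO (log2 -0.95, SE 0.29, adjusted p = 0.00506), and mt-Tp at 5.71 and 6.46 CPM against 3.06 and 3.39 CPM (log2 -0.87, SE 0.27, adjusted p = 0.00682). mt-Ta and mt-Tc, with 0 to 6 reads in each lung library, did not pass, except mt-Tc without lung KO 1 (adjusted p = 0.0353). So 3 of 5 tRNAs tested were called lower, beside the 26.4% of all genes. By DESeq2 only mt-Tq was called, and without lung KO 2 mt-Tm was not called (adjusted p = 0.0824).

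In spleen, mt-Tp was higher in KO, at 2.99 and 3.15 CPM against 4.89 and 6.04 CPM (log2 0.92, SE 0.24, adjusted p = 0.00133), and mt-Tq was called higher although its groups overlapped (7.23 and 3.50 CPM in Wt, 6.52 and 7.95 CPM in KO, adjusted p = 0.00789). Neither call was made by DESeq2 or without spleen KO 2, the deepest library (adjusted p = 0.264 for mt-Tp and 0.397 for mt-Tq), and that of mt-Tq was also lost without spleen Wt 2 (adjusted p = 0.813) and with the GC offset (log2 0.47, adjusted p = 0.0836). mt-Tm was at 6.73 and 7.11 CPM in Wt and at 8.15 and 7.30 CPM in KO and did not pass. In KO cells all 5 tRNAs were lower in lung than in spleen, from -0.85 for mt-Tp to -3.67 for mt-Tc on the log2 scale, with 2 and 0 reads of mt-Tc in lung KO, beside 31.7% of all genes called lower. That of mt-Tp was not called without spleen KO 2 (adjusted p = 0.301) or by DESeq2. In Wt, mt-Tp was higher in lung (log2 0.94, SE 0.27, adjusted p = 0.00354) and mt-Tc lower (log2 -1.95, SE 0.55, adjusted p = 0.00267), where 29.3% of all genes were called lower. Neither was called by DESeq2, and mt-Tc not without lung Wt 1 (adjusted p = 0.113). With the GC offset mt-Ta was called lower in lung as well (log2 -1.64, adjusted p = 0.00734).

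More of the nuclear-encoded subunits of the same complexes were lower than higher in lung KO, and more were higher than lower in spleen KO. Of 70 tested, 43 were lower and 8 higher in lung KO, where 26.4% of all genes were called lower, with a median log2 fold change of -0.22 against 0.02 over all genes. By complex, 26 of 36 complex I subunits were lower and 1 higher, 7 of 10 of complex IV were lower and 2 higher, and 8 of 15 of ATP synthase were lower and 3 higher. Of 9 complex III subunits 2 were lower and 2 higher, with a median of -0.03. In spleen KO, 45 of the 70 were higher and 4 lower, beside 28.2% of all genes called higher, with a median of 0.25 against 0.00, and 27 of the 36 complex I subunits were among those higher. The median of the complex I subunits was 0.31 there, against 0.27 for the 5 mt mRNAs of complex I. With the GC offset, an alternative chosen after the data were seen, 50 were lower in lung KO (median -0.35) and 57 higher in spleen KO (median 0.33). For these genes the offset thus moved the medians away from 0, where it moved those of the mt mRNAs towards 0. It also moved the median of all genes, from 0.020 to -0.055 in lung and from 0.00 to 0.016 in spleen. With the offset, 54.5% of all genes were called in either direction in lung and 55.5% in spleen. The median GC content of the 70 is 50.2%.

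The subunits named here were picked by smallest p in each organ and direction, so they illustrate these counts and add no evidence. Atp5o, a peripheral stalk subunit of ATP synthase, was at 369 ± 15 CPM in lung Wt and at 230 ± 1.7 CPM in lung KO (SD, n = 2, log2 -0.69, SE 0.048), while in spleen it was at 255 ± 2.2 CPM for Wt and 378 ± 24 CPM for KO (log2 0.55, SE 0.046). Ndufb8 of complex I fell in lung (log2 -0.66) and rose in spleen (log2 0.53), and Ndufv2 of complex I did likewise (log2 -0.57 and 0.53). Against this direction, Atp5b, the catalytic beta subunit of ATP synthase, was higher in lung KO (369 ± 0.78 against 486 ± 0.057 CPM, log2 0.40) and slightly lower in spleen KO (log2 -0.10, adjusted p = 0.0320). Atp5d was higher in lung KO (log2 0.37). Cyc1, cytochrome c1 of complex III, was lower in spleen KO (log2 -0.29), as was Atp5k (log2 -0.30).

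Factors of mtDNA transcription and replication were called about as often as all genes. Of 16 tested, 2 were higher and 7 lower in lung KO (median -0.19), and 7 were higher and 1 lower in spleen KO (median 0.35). The share called was 56.2% in lung and 50.0% in spleen, against 55.6% and 57.1% of all genes. Polrmt, the mitochondrial RNA polymerase, was at 6.19 ± 0.72 CPM in lung Wt and 6.73 ± 2.0 CPM in lung KO and passed in neither organ (adjusted p = 0.945 and 0.423). Tfam, which packages mtDNA and opens its promoters, was at 63.4 ± 0.85 and 59.3 ± 1.1 CPM in lung Wt and KO (adjusted p = 0.265) but rose from 47.6 ± 3.1 to 80.3 ± 3.1 CPM in spleen KO (log2 0.71, SE 0.071, adjusted p = 1.18e-10). Ssbp1, the single-stranded DNA binding protein of mitochondria, fell in lung KO (log2 -0.52) as did Mterf1a, a termination factor (log2 -1.93). Tfb2m, which helps the polymerase start (log2 1.31), and Polg2, the accessory subunit of the mtDNA polymerase (log2 0.72), rose in lung KO. In spleen KO, Polg, its catalytic subunit, fell (log2 -0.94) and Primpol, a primase, rose (log2 0.52).

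Of 25 genes for processing, modification, stability and decay of mitochondrial RNA, 7 were higher and 10 lower in lung KO, and 9 higher and 6 lower in spleen KO, with medians of 0.01 and 0.10. The share called was 68.0% in lung and 60% in spleen, against 55.6% and 57.1% of all genes. Slirp and Lrpprc form the complex that keeps mt mRNAs stable and polyadenylated, and they differed. Slirp was at 178 ± 2.5 CPM in lung Wt and 138 ± 1.6 CPM in lung KO (log2 -0.36, SE 0.054), and in spleen at 138 ± 3.2 CPM for Wt and 177 ± 1.6 CPM for KO (log2 0.37, SE 0.051). Lrpprc was at 45.1 ± 7.8 and 47.8 ± 5.0 CPM in lung (adjusted p = 0.330) and fell from 42.9 ± 0.32 to 27.6 ± 1.7 CPM in spleen KO (log2 -0.59, SE 0.097). Elac2, the RNase Z that trims tRNA 3′ ends, rose in lung KO (log2 0.87) and fell in spleen KO (log2 -1.06). Rexo2, an RNA exonuclease, fell in lung KO (log2 -0.54). Fastkd5, which acts on mt mRNAs without flanking tRNAs, rose there from 2.79 ± 0.081 to 7.99 ± 1.7 CPM (log2 1.48). In spleen KO, Hsd17b10, a subunit of mitochondrial RNase P, rose (log2 0.49). Fastk fell there from 9.15 ± 0.25 to 2.66 ± 0.076 CPM (log2 -1.76).

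Among regulators of mitochondrial biogenesis, calls were higher in lung KO and lower in spleen KO. Of 9 tested, 6 were higher and 0 lower in lung KO, where the same test called 29.2% of all genes higher, and 0 were higher and 5 lower in spleen KO, where it called 28.9% lower. Gabpa, the DNA-binding part of nuclear respiratory factor 2, was at 54.3 ± 1.5 CPM in lung Wt and 90.5 ± 1.8 CPM in lung KO (log2 0.73, SE 0.073), and Myc at 41.7 ± 6.0 and 67.4 ± 0.29 CPM (log2 0.74, SE 0.095). Nrf1 rose in lung KO (log2 0.42) and fell in spleen KO (log2 -0.44). Ppargc1b, a transcriptional coactivator, had 1 and 0 reads in lung Wt against 23 and 16 in lung KO, and no fold is given for so few reads. In spleen KO it was lower, at 0.785 ± 0.19 CPM against 2.98 ± 1.1 CPM.

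**Figure D5:**
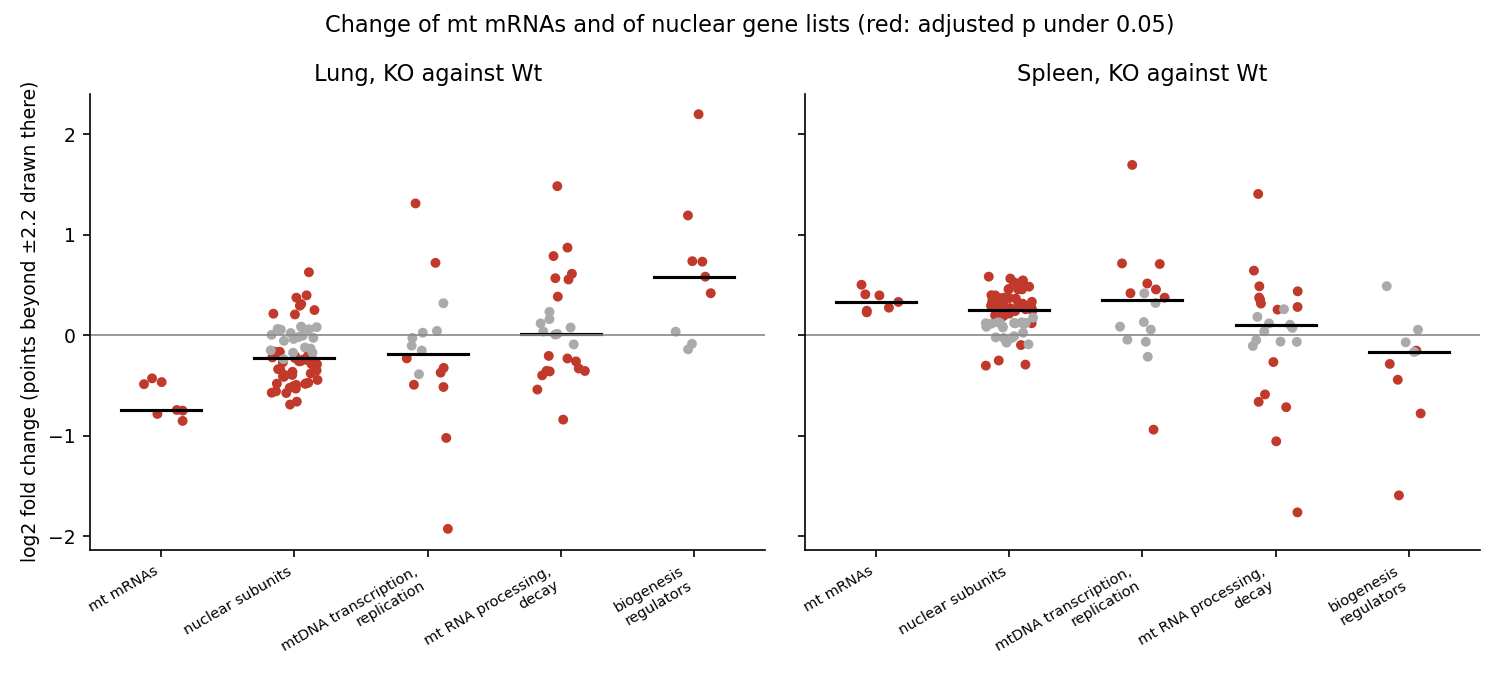
Log2 fold change of KO against Wt in lung (left) and spleen (right) for the 7 countable mt mRNAs, 70 nuclear-encoded subunits and the genes of 3 regulatory lists (points, red where the adjusted p was under 0.05) with the median of each list (line). The medians of the mt mRNAs (-0.74 and 0.33) and of the nuclear subunits (-0.22 and 0.25) lie on the same side of 0 in each organ, and those of the biogenesis regulators on the other.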

How the data were processed

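The data are RNA-seq libraries of sorted mouse NK cells, 2 for each of 4 groups taken from the sample titles. Per the submitters' processing notes, the authors aligned 50 bp reads to mm10 (GRCm38) with HISAT2 2.1.0 and counted them on genes with HTSeq 0.11.1, of which the study's methods name an earlier release. The deposited values are raw counts of reads, unnormalized and unfiltered, with 1 value for each gene symbol. The annotation and strand setting are not given in the sources used here. Software was edgeR 4.0.16, limma 3.58.1 and, as an alternative, DESeq2 1.42.0 under R 4.3.3, with Python 3.11.15, pandas 2.3.3 and matplotlib 3.10.9. Genes were kept by filterByExpr, libraries scaled by TMM, and the 4 group means fitted jointly over the 8 libraries. Genes were tested by edgeR's quasi-likelihood method, with Benjamini-Hochberg adjusted p-values over all 12595 of them and a threshold of 0.05, and SEs came from the F statistic. CPM use TMM-scaled totals. A count of 3 reads is at most 0.958 CPM, in the shallowest library. Base composition (known for 97.0% of tested genes), gene positions and sequences came from GENCODE M21. The GC offset was a spline with 5 degrees of freedom. HTSeq's categories of uncounted reads served to describe the libraries only.

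Members, gene lists and alternatives were chosen with earlier results of these data known. Every member is named. Of each gene list, the text names, per organ and direction, the 2 called genes of smallest p, plus Polrmt, Tfam, Lrpprc and Slirp. The script was tested on simulated data. Alternatives were RLE, upper-quartile and library-total scaling, scaling without the members, no filter or at least 10 counts in every library, only the groups compared, a replicate block, the GC offset, an assumed coefficient of variation of 0.2, DESeq2, an FDR of 0.001 and leaving out each library. Counts without mt-Atp6, the pool without mt-Cytb and the gene lists with the GC offset were added after the data were seen. Equal replicate numbers are not stated to pair libraries.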

Additional observations from a re-analysis of the deposited data

Results flagged for a closer look

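The KO effect differed between lung and spleen, by the interaction term of edgeR's quasi-likelihood test, for 13 of the 15 members tested, where 61.6% of all genes differed. In each, the effect in lung was below that in spleen. The difference, lung minus spleen on the log2 scale, was -1.16 for mt-Cytb, -1.12 for mt-Rnr2, -1.12 for mt-Nd5, -1.08 for mt-Nd2, -1.02 for mt-Nd6, -0.97 for mt-Co1, -0.83 for mt-Nd4, -0.73 for mt-Nd1 and -0.51 for mt-Rnr1. Among the tRNAs it was -2.76 for mt-Tq, -1.79 for mt-Tp and -1.04 for mt-Tm. For mt-Atp6 it was -3.10, a value that rests on 68 reads in spleen KO 2. Without lung KO 2 that of mt-Tm was not called (adjusted p = 0.0732), and DESeq2 called neither that of mt-Tm (adjusted p = 0.09999) nor that of mt-Atp6 (adjusted p = 0.114). Of the other 2 tRNAs, mt-Ta was called without lung Wt 1 (adjusted p = 0.0403) or spleen Wt 2 (adjusted p = 0.0464), and mt-Tc without lung KO 1 (adjusted p = 0.0372). The cause was not tested.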

How the results depend on the processing

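In lung, edgeR's calls of the 7 countable mRNAs and the 2 rRNAs held without each library in turn (log2 -0.96 to -0.35), and in spleen those of the 7 mRNAs and mt-Rnr2 did. With a coefficient of variation of 0.2, calls of mRNAs, rRNAs and tRNAs fell to 1, 0 and 1 in lung, 1, 0 and 0 in spleen (the mRNA being mt-Atp6), 3 and 1 mRNAs and rRNAs for the difference between organs, 2 mRNAs and 1 tRNA between organs in Wt, and 0 mRNAs and 0 rRNAs in KO. Of all genes, that setting called 12.4% in lung, 9.08% in spleen and 16% for the difference. Between organs it called 16% in Wt and 18.4% in KO. The GC offset left 1 rRNA in lung, and 4 mRNAs (the sparse mt-Atp6 among them) and 1 tRNA in spleen. It called 2 rRNAs in spleen, mt-Rnr2 higher (log2 0.12) and mt-Rnr1 lower (log2 -0.27). It gave 2 rRNAs between organs in KO and 1 rRNA for the difference. Of all genes, the GC offset left 54.5% called in lung, 55.5% in spleen and 59.3% for the difference. Between organs it left 56.1% called in Wt and 64.7% in KO. With this offset and a replicate block the counts were 5 mRNAs (mt-Atp6 among them) and 2 rRNAs (1 higher and 1 lower) in spleen. They were 5 and 2 between organs in KO, and 1 rRNA for the difference. Direction reversed under the GC offset, without and with the block, for mt-Nd2 (-0.0303 and -0.0272) and mt-Nd6 (-0.0203 and -0.0178) in spleen, mt-Nd6 between organs in Wt (-0.10 and -0.11), mt-Nd4 between organs in KO (0.0492 and 0.0401) and mt-Rnr1 for the difference (0.13 and 0.13). The tRNA calls were 1, 0 and 0 in lung, spleen and between organs in Wt by DESeq2, and the same at an FDR of 0.001. Without a filter 4 of 19 tRNAs tested were called in spleen and 10 of 19 between organs in KO, where the main fit tested 5. With at least 10 counts in every library it was 1 of 2 in spleen. Between organs it was then 1 of 2 in Wt and 2 of 2 in KO. The number of tRNAs tested also varied when a library was left out. Leaving out 1 library gave 0 to 3 tRNA calls in spleen, 1 to 3 between organs in Wt, 4 to 10 in KO and 2 to 5 for the difference. Relative to the mt mRNA pool, calls in spleen fell to 1 with a pool without mt-Cytb and to 0 without spleen KO 2 (0 to 4 over left-out libraries), and between organs in Wt to 3. As shares of all uniquely aligned reads, the mt mRNA ratios were 1.22 for KO against Wt in spleen and 1.66 for lung against spleen in Wt, against 1.25 and 1.74. Causes were not tested. With library totals in place of TMM, the median of all genes stood at 0.11 in lung, -0.06 in spleen, -0.12 between organs in Wt, 0.07 in KO and 0.19 for the difference, against 0.02, 0.00, -0.01, 0.02 and 0.03.

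Deviations of libraries with equal replicate numbers correlated at -0.0242 in lung and 0.164 in spleen over 5160 genes, so not every pair deviated together, and the replicate block alone changed no count of calls by over 1.5 times. With it, mt-Co1 passed relative to the pool in spleen (log2 0.11, adjusted p = 0.0371). Depth limits the tRNAs, most of which had too few reads to test.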
